A study of Mus musculus with 6 samples.

Results

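The guanylate-binding proteins (GBPs) are a family of large GTPases encoded by the Gbp genes, and their transcripts were measured in natural killer (NK) cells of the mouse spleen. The 9 members described here (Gbp2, Gbp2b, Gbp3, Gbp4, Gbp5, Gbp6, Gbp7, Gbp8 and Gbp9) were chosen by gene symbol from the 55291 gene rows of the deposited raw count table, and the family was chosen with the results of the genotype comparison already known. Their genotype differences are therefore given as a description, and nothing is concluded from how many of them passed a threshold.

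Bulk RNA sequencing compared spleens of mice carrying the S303/7A form of heat shock factor 1 (HSF1), in which the serines at positions 303 and 307 are replaced by alanine, with spleens of mice wild type (WT) for HSF1, all at steady state. There were 3 mice in each group, S303/7A mice 5, 6 and 7 and WT mice 1, 2 and 3, and each mouse gave 1 library from cells enriched on DX5 beads and then sorted as CD49b+ CD3e-. No agent is labelled for either group, and the labels give no age, sex or strain and do not say whether the mutation is limited to any cell type. CD49b is also carried by cells other than NK cells, such as basophils and platelets, against which the stated gate has no marker.

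GBPs are made at low levels in resting cells and strongly induced by interferon gamma, which acts through its receptor, the kinases JAK1 and JAK2 and transcription factors that include IRF1. They are best known from infected macrophages, where they gather on vacuoles and membranes that hold microbes, with the help of the immunity-related GTPases and of the conjugation machinery of the autophagy protein ATG8, and take part in inflammasome activation. NK cells are themselves a main source of interferon gamma, and they carry its receptor. Mouse Gbp genes lie in 2 clusters, and the interferon gamma inducibility of Gbp2b, formerly named Gbp1, is known to differ between inbred mouse strains.

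In the GRCm38 build with GENCODE release 21 of the mouse annotation, 5 members lie on the plus strand of chromosome 3 in the order Gbp5 (142493978 to 142522344), Gbp7 (142530342 to 142550149), Gbp3 (142560026 to 142573209), Gbp2b (142594847 to 142619179) and Gbp2 (142620602 to 142638008). The other 4 lie on the minus strand of chromosome 5. There Gbp8 (105014150 to 105139540), Gbp9 (105077630 to 105139539) and Gbp4 (105115767 to 105139586) begin near each other, since Gbp9 and Gbp8 are transcribed from neighbouring bases and Gbp4 from a short distance before them, and Gbp6 (105270702 to 105293698) lies further along. The cluster on chromosome 5 also holds Gbp10 and Gbp11, and the one on chromosome 3 ends with the pseudogene Gbp2-ps.

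Gbp2b and Gbp2 are the closest pair on chromosome 3, with 83.6% identity over 1754 aligned coding bases, and the account of Gbp2b below depends on their reads being told apart. The first 90 aligned coding bases without a gap are shown for that reason. They are coding bases 58 to 147 of both genes, counted from the A of the start codon, from GENCODE transcripts on chromosome 3. Capitals mark the 22 bases that differ, a larger share than over the whole alignment.
Gbp2b: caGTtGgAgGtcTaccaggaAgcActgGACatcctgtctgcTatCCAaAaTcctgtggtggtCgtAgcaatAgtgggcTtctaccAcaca
Gbp2: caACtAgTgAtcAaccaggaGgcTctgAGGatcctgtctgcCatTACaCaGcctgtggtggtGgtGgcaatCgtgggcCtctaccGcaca
Of the 2774 windows of 50 bases along the Gbp2b transcript, 51 (1.84%) also occurred in another gene, and that gene was Gbp2 in all 51.

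RefSeq promoter windows (GRCm38.p6, 250 bases before to 50 bases after the transcript start) were matched by symbol for 5 of the 9 members, Gbp2, Gbp2b, Gbp3, Gbp5 and Gbp7, with 2 starts for Gbp3. Gbp4, Gbp6, Gbp8 and Gbp9 were not matched. The 250 bases before the start of Gbp2b, of its neighbour Gbp2 and of Gbp7 are printed because these are the 3 members with the lowest p-values in the comparison, and capitals mark matches to the interferon-stimulated response element (ISRE, searched as GAAANNGAAA on both strands) and to the gamma-activated site (GAS, searched as TTCNNNGAA, which reads the same on both strands). All are on the plus strand, at chr3:142594597-142594846 for Gbp2b, chr3:142620413-142620662 for Gbp2 and chr3:142530086-142530335 for Gbp7.
Gbp2b: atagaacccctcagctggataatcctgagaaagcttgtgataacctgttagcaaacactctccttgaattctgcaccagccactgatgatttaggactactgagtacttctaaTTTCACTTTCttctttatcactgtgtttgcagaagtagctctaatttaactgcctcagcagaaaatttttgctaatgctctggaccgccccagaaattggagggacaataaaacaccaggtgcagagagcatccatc
Gbp2: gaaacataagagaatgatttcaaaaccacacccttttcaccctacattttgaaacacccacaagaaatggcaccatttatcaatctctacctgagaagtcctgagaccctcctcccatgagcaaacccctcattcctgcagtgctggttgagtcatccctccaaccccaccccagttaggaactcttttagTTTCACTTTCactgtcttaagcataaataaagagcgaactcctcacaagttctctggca
Gbp7: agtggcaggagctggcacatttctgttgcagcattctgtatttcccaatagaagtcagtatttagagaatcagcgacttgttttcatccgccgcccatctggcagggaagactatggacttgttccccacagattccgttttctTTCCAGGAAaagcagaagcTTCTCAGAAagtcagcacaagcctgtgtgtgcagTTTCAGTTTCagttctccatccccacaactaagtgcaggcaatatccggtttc
The ISRE letters occurred in 5 of the 6 Gbp windows, against 1131 of 32851 RefSeq windows of the same length (3.44%). The match in Gbp2b and the match in Gbp2 were the same 10 letters, but they began 137 bases before the start in Gbp2b and 59 bases before it in Gbp2. In Gbp7 the match began at -53, in Gbp5 at -165, and in the first start of Gbp3 at -45 and -39, where the matches overlap, and the second start of Gbp3 had none. The GAS letters occurred in 2 of the 6 windows, against 8.30% of all windows, with matches at -106 and -87 in Gbp7 and at -245 and -52 in Gbp5. The element bound by HSF1 (HSE, searched as GAANNTTCNNGAA on both strands) was in 0 of the 6 windows, against 0.603% of all windows. These are matches of letters in one window, and binding was not measured.

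**Figure D1:**
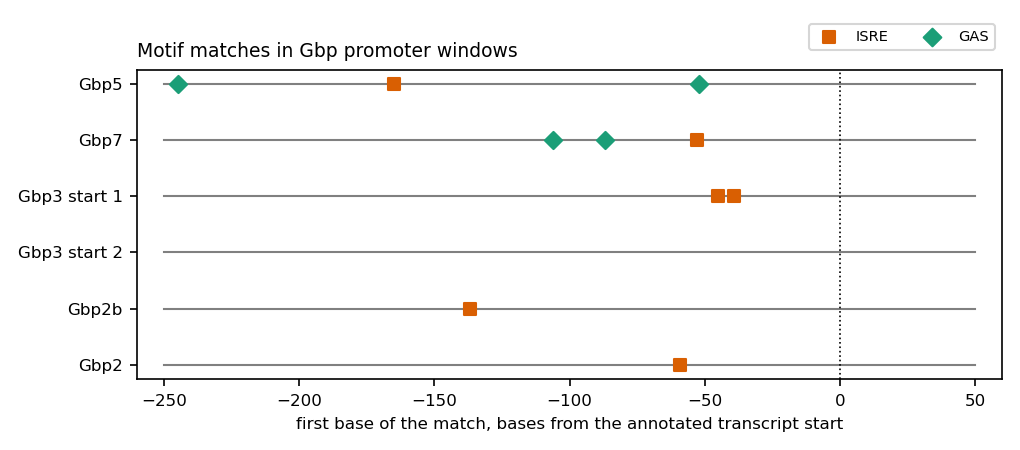
Matches to the ISRE and GAS letters in the 6 RefSeq promoter windows of chromosome 3 Gbp genes, with the distance from the transcript start in bases on the x axis (dotted line at the start) and a grey line for each window. The ISRE square lies at -137 in Gbp2b and at -59 in Gbp2, GAS diamonds are in Gbp5 and Gbp7, and the second start of Gbp3 has no match.

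Library totals were 43189163 to 47248039 counts in S303/7A mice and 53845572 to 72736406 in WT mice, so 1 count was worth 0.0214 to 0.0233 CPM (counts scaled to the library total) in S303/7A and 0.0136 to 0.0184 CPM in WT. CPM values are scaled with TMM factors, which correct library totals for composition. Of 16480 genes with enough counts to test, 60 (0.364%) were called, that is, had a Benjamini-Hochberg adjusted p below 0.05 from the quasi-likelihood test of edgeR, 22 higher and 38 lower in S303/7A, and 5 to 57 passed when 1 library was left out, with 5 in the fit without WT 2. Hsf1, the mutated gene, had 67.0, 42.2 and 76.9 CPM in S303/7A, against 83.2, 104 and 108 CPM in WT, without overlap but not called (adjusted p = 0.386), and gene counts do not show the replaced serines. All 10 NK markers were tested, with summed levels of 16859 to 17837 CPM in S303/7A and 15529 to 19356 CPM in WT. Their log2 folds were above 0 for 6 and below 0 for 4, and 1 of them, Klrb1c, was called lower. The sums of 5 marker lists of other cells were lower in S303/7A without overlap. Basophil markers summed to 219 to 305 CPM in S303/7A, against 383 to 673 CPM in WT, with 8 of 8 tested folds below 0, and platelet markers to 111 to 149 CPM in S303/7A, against 239 to 253 CPM in WT, with 7 of 7 below 0. In each of these lists 1 gene was called lower, Ms4a2 for basophils and Vwf for platelets. The other sums rested on few genes. Neutrophil markers summed to 28.5 to 34.7 CPM in S303/7A, against 48.2 to 66.0 CPM in WT, mostly from Cxcr2 (20.8 to 28.5 CPM in S303/7A, 41.4 to 51.8 CPM in WT). Of their 5 tested folds 3 were below 0, and those of S100a8 and S100a9 were above it (log2 folds of 0.86 and 1.22). Erythroid markers summed to 11.2 to 12.5 CPM in S303/7A, against 17.0 to 24.2 CPM in WT, mostly from Gata1, and 3 of the 6 tested folds, those of globins, were above 0. Dendritic cell markers summed to 273 to 473 CPM in S303/7A, against 551 to 738 CPM in WT, nearly all from Itgax, an integrin that NK cells also make. T cell markers summed to 181 to 207 CPM in S303/7A, against 129 to 178 CPM in WT, higher without overlap, with Trbc2 the largest contributor. Of the 9 tested folds 8 were above 0 and 1, that of Trac, below it (log2 fold -0.51). Cd3e, Cd3d and Cd3g overlapped between the groups, while Trbc2 and Cd8b1 were higher and Trac lower without overlap. The part of these other cells in the Gbp values was not tested, and in bulk RNA fewer cells of a type and less RNA per cell cannot be told apart.

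Gbp2b, whose protein carries a C-terminal prenylation motif and gathers on Toxoplasma vacuoles in mouse cells, was found in the S303/7A libraries and in none of the WT libraries. It had 26, 34 and 88 counts in S303/7A mice 5, 6 and 7, against 0, 0 and 0 counts in WT mice 1, 2 and 3. In CPM it stood at 0.606, 0.789 and 1.88 in S303/7A, against 0, 0 and 0 in WT. All 3 S303/7A libraries lay above all 3 WT libraries, and mouse 7 was the highest. The 95% Poisson intervals, which cover counting error only, were 0.396 to 0.889 CPM for S303/7A 5, 0.546 to 1.10 CPM for S303/7A 6 and 1.51 to 2.32 CPM for S303/7A 7. The intervals of mice 5 and 6 overlap and that of mouse 7 lies above both. A floor of 3 counts, a chosen value, corresponds to 0.0476, 0.0552 and 0.0408 CPM in WT 1, 2 and 3. Transcripts below those levels could have gone uncounted there, though 1 count was worth 0.0136 to 0.0184 CPM in WT. Over the groups, 148 counts in S303/7A gave 1.12 CPM (0.943 to 1.31), and 3 counts over the WT group would give 0.0157 CPM, a ratio of 71.0-fold. The ratio leaves out the counting error of S303/7A and the spread between mice, so it is not a strict lower limit. It also rests on single libraries: without S303/7A 7, which held 88 of the 148 counts, it was 44.4-fold, without WT 3 43.7-fold and without WT 1 47.6-fold, and over all 6 libraries left out in turn it was 43.7 to 86.5-fold. The WT libraries, which held no Gbp2b count, were the deeper ones.

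The Gbp2b difference did not pass the threshold in the main edgeR test (unadjusted p = 0.00042, adjusted p = 0.0796). DESeq2, which called 2.65% of genes, gave Gbp2b an adjusted p of 1.75e-06, and edgeR with no filter on low counts, which called 0.502% of genes, gave 0.00452. With limma-voom the adjusted p was 0.0686, and leaving out 1 library at a time gave 0.158 to 0.234. The call thus differed between tools while the counts themselves had no overlap between the groups. With 0 counts in each WT library, Gbp2b could pass the low-count filter only through S303/7A. Among filtered genes its direction and its lack of overlap were thereby set, and they carry no further weight.

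Beside these Gbp2b counts, the S303/7A libraries held 2551 to 3000 Gbp2 counts, and the WT libraries, with 0 Gbp2b counts, 2551 to 3656 Gbp2 counts. No exon base of Gbp2b lies in an exon of another gene, and how reads that match several genes were counted is unknown. The basophil, platelet, neutrophil, erythroid and dendritic cell marker sums given above were lower in S303/7A without overlap, and that of T cells was higher. The NK marker sums of the groups overlapped. The part of other cells in the Gbp2b counts was not tested. No strain is labelled for either group, so the part of strain in these counts was not tested either.

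**Figure D2:**
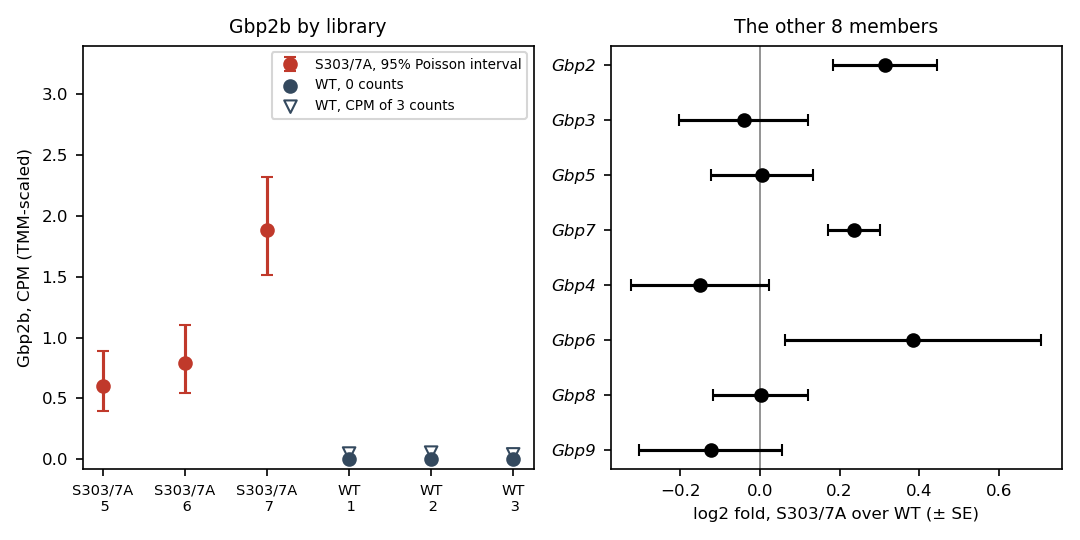
Left, Gbp2b in CPM by library, with the 95% Poisson counting interval for the 3 S303/7A libraries, filled points for the 3 WT libraries at 0 counts and open triangles at the CPM of 3 counts. Right, log2 fold of S303/7A over WT with its standard error for the 8 members with counts in both groups; Gbp7 and Gbp2 lie furthest above 0 in units of their error, and Gbp5 and Gbp8 lie at 0.

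Gbp2, the direct neighbour of Gbp2b, is prenylated like it and is needed in mice for control of Toxoplasma. Its raw counts were 2872, 3000 and 2551 in S303/7A, against 3656, 2551 and 3588 in WT. In CPM these were 67.0, 69.6 and 54.6 in S303/7A, against 58.0, 46.9 and 48.8 in WT. The groups overlapped, since S303/7A 7 lay below WT 1. The means were 63.7 ± 8.0 CPM in S303/7A and 51.2 ± 5.91 CPM in WT (SD, n = 3 each), a log2 fold of 0.32 ± 0.13 (SE), with an edgeR adjusted p of 0.503.

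Gbp7, reported in mouse macrophages to help assemble the NADPH oxidase on phagosomes, was the only member apart from Gbp2b whose groups did not overlap. Among all tested genes, 16.0% had groups that did not overlap. Gbp7 counts were 12782, 12363 and 12586 in S303/7A, against 14867, 13631 and 17540 in WT. After scaling it had 298, 287 and 269 CPM in S303/7A, against 236, 251 and 239 CPM in WT, so the lowest S303/7A library lay above the highest WT library. The mean was 285 ± 14.4 CPM in S303/7A and 242 ± 7.91 CPM in WT, a 1.18-fold difference (log2 0.24 ± 0.07, SE) that did not pass the threshold (adjusted p = 0.284). The log2 fold stayed between 0.20 and 0.27 in all 12 alternative fits, and none of them called it (adjusted p 0.109 to 0.599).

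Gbp3 and Gbp5 complete the chromosome 3 members. Gbp3, which has been seen on Toxoplasma vacuoles in mouse cells, had 2905, 2793 and 2621 counts in S303/7A, against 5038, 3333 and 3888 counts in WT. In CPM it had 67.8, 64.8 and 56.1 in S303/7A, against 79.9, 61.3 and 52.9 in WT, and the WT libraries enclosed those of S303/7A (log2 fold -0.04 ± 0.16, SE). Gbp5, which also carries a prenylation motif and has been linked to the NLRP3 inflammasome in mouse macrophages, had 1354, 1692 and 1456 counts in S303/7A, against 1991, 1867 and 2625 counts in WT. Its levels were 31.6, 39.2 and 31.2 CPM in S303/7A, against 31.6, 34.3 and 35.7 CPM in WT, with a log2 fold of 0.01 ± 0.13 (SE), and both the highest and the lowest value came from S303/7A. The adjusted p was 0.973 for Gbp3 and 0.995 for Gbp5.

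On chromosome 5, Gbp4 had the most counts of that cluster. Its counts were 13044, 11142 and 11093 in S303/7A, against 23829, 14244 and 18237 in WT, and its levels 304, 258 and 238 CPM in S303/7A, against 378, 262 and 248 CPM in WT. WT 1 was the highest library and the other WT libraries lay among those of S303/7A, with a log2 fold of -0.15 ± 0.17 (SE, adjusted p = 0.872). Gbp9, another member seen on Toxoplasma vacuoles in mouse cells, had the same shape. Its counts were 4647, 4065 and 3794 in S303/7A, against 8188, 4538 and 7057 in WT, and its levels 108, 94.3 and 81.2 CPM in S303/7A, against 130, 83.4 and 96.0 CPM in WT (log2 fold -0.12 ± 0.18, adjusted p = 0.906). Again WT 1 stood highest, as it did for Gbp3.

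Gbp8 had 4034, 3406 and 3335 counts in S303/7A, against 5204, 4716 and 5502 counts in WT. In CPM it had 94.1, 79.0 and 71.4 in S303/7A, against 82.5, 86.7 and 74.8 in WT, and the S303/7A libraries enclosed those of WT (log2 fold 0.00 ± 0.12, SE, adjusted p = 0.998). The mean was 81.5 ± 11.6 CPM in S303/7A and 81.3 ± 6.01 CPM in WT.

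Gbp6, also seen on Toxoplasma vacuoles in mouse cells, was the lowest member apart from Gbp2b. Its counts were 407, 228 and 234 in S303/7A, against 300, 353 and 288 in WT. Its levels were 9.49, 5.29 and 5.01 CPM in S303/7A, against 4.76, 6.49 and 3.92 CPM in WT, with a log2 fold of 0.38 ± 0.32 (SE, adjusted p = 0.795). S303/7A 5 stood apart from the other 5 libraries, and without it the log2 fold was 0.03. The Gbp6 count is uncertain for another reason, because 90.2% of its 50-base transcript windows also occur in other genes, most of all in Gm43302 and Gbp10, and with Gbp10 it shares 98.4% of 1833 coding bases. In addition, 29.0% of the Gbp6 exon bases lie in exons of the read-through locus Gm43302, which held 0, 0 and 1 counts in S303/7A and 4, 0 and 0 in WT.

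**Figure D3:**
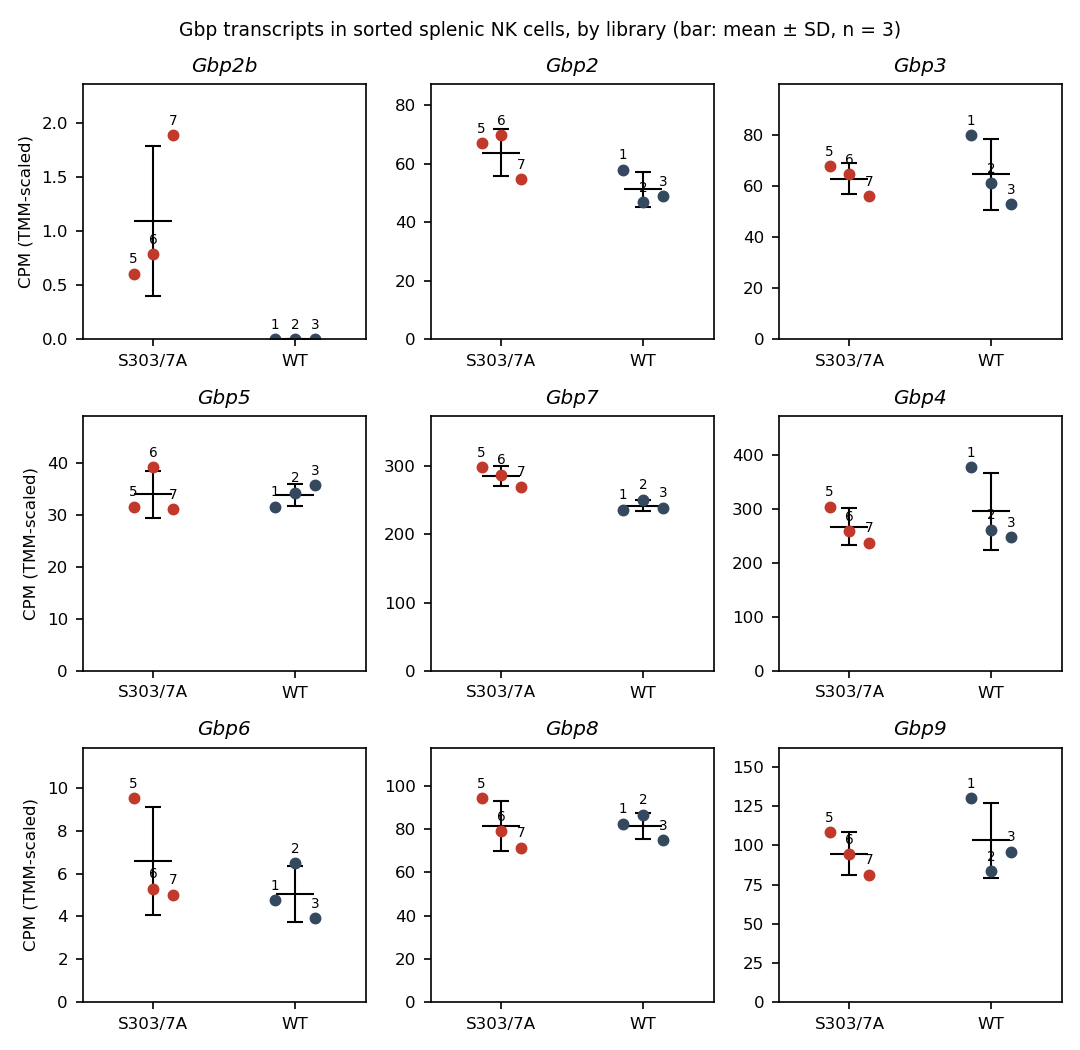
TMM-scaled CPM of the 9 Gbp members, 1 panel per gene with its own y axis starting at 0. Points are mice, labelled with their number, and bars give the mean ± SD of 3 S303/7A and 3 WT libraries. Gbp2b and Gbp7 are the members whose groups do not overlap, as is the case for 16.0% of all tested genes. WT 1 is highest for Gbp3, Gbp4 and Gbp9.

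Across the family, all 9 members passed the filter on low counts, Gbp2b only through its S303/7A counts. The quasi-likelihood test of edgeR called 0 of 9, against 0.364% of all tested genes, with 3 (Gbp2b, Gbp7 and Gbp2) at an unadjusted p under 0.05, against 9.68% of all tested genes. DESeq2, at a background of 2.65%, called 1, Gbp2b, and limma-voom called 0. The groups did not overlap for 2 of 9 members, both higher in S303/7A, where 16.0% of all tested genes had groups that did not overlap. The fitted log2 fold was above 0 for 6 members and below 0 for 3, and its median was 0.01 over the members, also with Gbp2b at its ratio to the WT floor, and 0.01 over all tested genes. Since the members were chosen with these results known, these counts carry no weight of their own. Summed over the 9 members, the family made up 981, 898 and 808 CPM in S303/7A, against 1000, 832 and 799 CPM in WT, which is 0.0974%, 0.0887% and 0.0799% of counts in S303/7A and 0.101%, 0.0840% and 0.0807% in WT. The WT libraries enclosed those of S303/7A.

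The spread within groups was shared by several members. S303/7A 7 was the lowest of its group for all members other than Gbp2b, for which it was the highest. S303/7A 5 was the highest of its group for Gbp3, Gbp4, Gbp6, Gbp7, Gbp8 and Gbp9, and WT 1 was the highest of its group for Gbp2, Gbp3, Gbp4 and Gbp9. Of the members without overlap between the genotypes, Gbp2b was thus highest and Gbp7 lowest in the same S303/7A mouse.

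Levels of different genes were compared as CPM per kilobase of exon union, since longer genes collect more reads. In S303/7A libraries the order was Gbp7 (50.7 ± 2.57), Gbp4 (35.6 ± 4.56), Gbp2 (25.3 ± 3.18), Gbp8 (23.7 ± 3.36), Gbp3 (19.3 ± 1.85), Gbp9 (18.3 ± 2.63), Gbp5 (5.12 ± 0.685), Gbp6 (1.11 ± 0.422) and Gbp2b (0.387 ± 0.245), all in CPM per kilobase as mean ± SD with n = 3. Neighbours in this order whose ranges overlapped were Gbp2 and Gbp8, Gbp8 and Gbp3, and Gbp3 and Gbp9, and the others were separated. In WT libraries the order was Gbp7 (43.0 ± 1.41), Gbp4 (39.5 ± 9.50), Gbp8 (23.6 ± 1.75), Gbp2 (20.4 ± 2.35), Gbp9 (19.9 ± 4.64), Gbp3 (19.8 ± 4.23), Gbp5 (5.10 ± 0.318), Gbp6 (0.849 ± 0.220) and Gbp2b at 0 counts. There Gbp7 and Gbp4 overlapped, as did Gbp8 and Gbp2, Gbp2 and Gbp9, and Gbp9 and Gbp3. Gbp5, Gbp6 and Gbp2b thus lay below the other members in both genotypes by this measure. The level of Gbp6 is uncertain, because 90.2% of its 50-base windows occur in other genes and how such reads were counted is unknown. With the coding length in place of the exon union, Gbp4 came first and Gbp7 second in WT: 1893 of the 7494 exon bases of Gbp4 correspond to its coding length, against 1914 of 5614 in Gbp7. After these came Gbp9, Gbp8, Gbp3 and Gbp2, each at a changed rank, and then Gbp5, Gbp6 and Gbp2b at the same ranks.

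**Figure D4:**
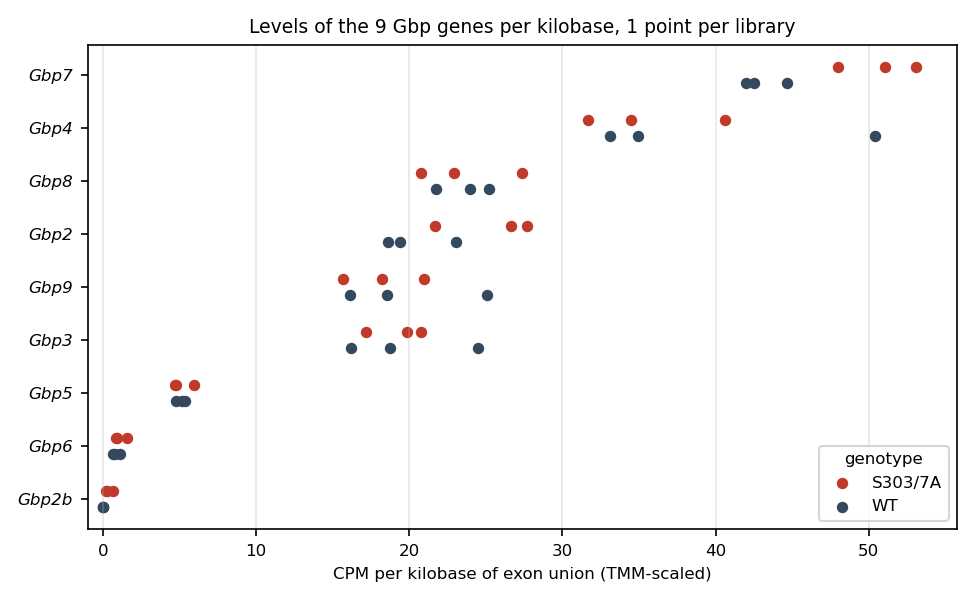
CPM per kilobase of exon union for the 9 members, 1 point per library, S303/7A in the upper row of each gene and WT in the lower row. Gbp7 and Gbp4 lie above 30 in all libraries, Gbp8, Gbp2, Gbp9 and Gbp3 overlap between 15 and 28, and Gbp5, Gbp6 and Gbp2b lie below 6.

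The other Gbp loci had few counts. Gbp10, nearly identical to Gbp6, had 66, 70 and 90 counts in S303/7A, against 241, 112 and 116 counts in WT, or 1.54, 1.62 and 1.93 CPM against 3.82, 2.06 and 1.58 CPM in WT (log2 fold -0.55 ± 0.38, adjusted p = 0.746). The groups overlapped, and 82.5% of its 50-base windows occur in other genes. Gbp11 had 3, 3 and 3 counts in S303/7A, against 17, 20 and 3 counts in WT, and Gbp2-ps had 0, 0 and 2 counts in S303/7A, against 0, 0 and 0 counts in WT, both too few to test. The chromosome 5 genes Gbp4, Gbp6, Gbp8, Gbp9 and Gbp10 shared 90.3% or more of their aligned coding bases pairwise, and 12.8% of the 50-base windows of Gbp4, 21.2% of those of Gbp8 and 9.56% of those of Gbp9 also occurred in other genes, so how the counting treated reads that match several genes, which is not given in the sources used here, can move counts between them. The chromosome 3 members shared less, 2.07% of windows in Gbp2, 4.88% in Gbp3, 0.898% in Gbp5 and 5.19% in Gbp7. For Gbp7, 11.3% of exon bases lie in the processed pseudogene Gm43802, which held 0 counts in all libraries.

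Genes around the clusters were read off the same fit. Within 1 Mb of the chromosome 3 cluster, 6 of 29 annotated genes were tested, and edgeR called 0 of them, with 0 at an unadjusted p under 0.05 and a median log2 fold of -0.06. Within 1 Mb of the chromosome 5 cluster, 15 of 45 were tested and 0 were called, 1 had an unadjusted p under 0.05, and the median log2 fold was 0.11. DESeq2 and limma-voom called 0 of these 21 genes too.

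Interferon gamma signalling, the pathway upstream of the Gbp genes, had 15 tested genes, of which edgeR called 0, with 3 at an unadjusted p under 0.05. Ifng, which encodes interferon gamma itself, had 34.4, 44.1 and 33.2 CPM in S303/7A, against 44.5, 44.6 and 46.6 CPM in WT (log2 fold -0.28 ± 0.13, adjusted p = 0.563), without overlap. Ifngr1, the ligand-binding receptor chain, averaged 1743 ± 72.2 CPM in S303/7A and 1496 ± 177 CPM in WT (adjusted p = 0.498). Ifngr2, the signal-transducing receptor chain, had the list's largest log2 fold. It had 4.20, 3.22 and 5.25 CPM in S303/7A, against 7.05, 11.9 and 7.40 CPM in WT, a log2 fold of -1.06 ± 0.29 (SE). Its groups did not overlap, and the adjusted p was 0.282 in edgeR and 0.0327 in DESeq2.

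Neither Irf1 nor Irf8, factors that act on interferon-induced promoters, was called by edgeR or DESeq2. Irf1 averaged 614 ± 20 CPM in S303/7A and 626 ± 25.4 CPM in WT. Irf8, a factor of the same family as Irf1 that also binds ISREs, had 706, 858 and 978 CPM in S303/7A, against 994, 1133 and 1379 CPM in WT (log2 fold -0.46 ± 0.15, adjusted p = 0.38), without overlap. Socs1, which dampens JAK signalling, spread widely within both groups: the S303/7A mice had 29.7, 13.6 and 37.4 CPM, and the WT mice had 29.6, 29.6 and 10.1 CPM. The median log2 fold of the list was -0.03.

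The immunity-related and giant GTPases, which are induced beside the GBPs and act with them on vacuoles, had 14 tested genes, 0 called, 3 at an unadjusted p under 0.05, 9 with a log2 fold above 0 and a median of 0.12. Among the regulators Irgm1, Irgm2 and Igtp, the means were 140 ± 8.02, 67.9 ± 7.49 and 85.9 ± 3.00 CPM in S303/7A, against 126 ± 14.5, 61.1 ± 5.88 and 86.8 ± 8.48 CPM in WT. The effectors Iigp1 and Tgtp1 stood at 1.91 ± 0.991 and 4.57 ± 1.20 CPM in S303/7A, against 2.60 ± 1.27 and 6.00 ± 3.52 CPM in WT. Tgtp2 had 38.1, 34.5 and 36.9 CPM in S303/7A, against 22.2, 23.7 and 30.4 CPM in WT, the largest log2 fold of this list (0.52 ± 0.15, adjusted p = 0.290 in edgeR and 0.0367 in DESeq2). Its groups did not overlap, but 90.6% of its 50-base windows occur in other genes, chiefly Tgtp1, so the split between these copies is uncertain. Ifi47, also an immunity-related GTPase, had 429, 431 and 448 CPM in S303/7A, against 280, 237 and 423 CPM in WT (log2 fold 0.48 ± 0.20, adjusted p = 0.500). The groups of Ifi47 did not overlap, but WT 3 was close to the S303/7A libraries and the other WT libraries lay well below.

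Gm1966, of the giant GTPase group and named after its values were seen because its call depends on 1 library, had 89.0, 205 and 80.6 CPM in S303/7A, against 160, 160 and 166 CPM in WT. It was not called (adjusted p = 0.814), and in the fit without S303/7A 6 it passed as lower (adjusted p = 0.0156).

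Partners of GBPs in inflammasome activation and pyroptosis had 11 tested genes, 0 called, 2 at an unadjusted p under 0.05 and a median log2 fold of -0.14. Casp1 and Casp4, the inflammatory caspases, averaged 88.7 ± 6.79 and 19.7 ± 0.532 CPM in S303/7A, against 85.7 ± 6.12 and 24.6 ± 6.19 CPM in WT. Gsdmd, the pore former they cleave, averaged 137 ± 18.3 CPM in S303/7A and 151 ± 10.7 CPM in WT, and the DNA sensor Aim2 44.5 ± 5.72 CPM in S303/7A and 44.9 ± 0.810 CPM in WT. Il1b, a cytokine that neutrophils and monocytes make in quantity, had the largest log2 fold of the list at -2.29 ± 1.01, with 0, 0.139 and 0.471 CPM in S303/7A, against 0.935, 1.40 and 0.707 CPM in WT (adjusted p = 0.545). The neutrophil marker sum was lower in the same libraries, mostly through Cxcr2. Of its 5 tested folds 3 were below 0 and 2, those of S100a8 and S100a9, above it. Of 8 tested monocyte and macrophage markers, 6 had folds below 0 and 2 above it. The part of other cells in the Il1b value was not tested.

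The ATG8 conjugation machinery, which helps direct GBPs to vacuoles, had 10 tested genes, 0 called, 2 at an unadjusted p under 0.05, and a median log2 fold of 0.06. Atg5, one of its core components, averaged 103 ± 5.84 CPM in S303/7A and 100.3 ± 4.34 CPM in WT, and Map1lc3a, with the largest log2 fold, spread from 1.55 to 11.3 CPM in S303/7A and from 1.41 to 5.29 CPM in WT. Of the genes for prenyltransferases, for later processing of the CaaX end and for making the lipid donors, which serve proteins such as Gbp2, Gbp2b and Gbp5, 8 were tested and edgeR called 0, with 0 at an unadjusted p under 0.05 and a median of -0.04. Fnta, the subunit that both prenyltransferases share, averaged 179 ± 14 CPM in S303/7A and 191 ± 11.4 CPM in WT. Pggt1b, a subunit of the enzyme that attaches geranylgeranyl groups, averaged 37.8 ± 2.15 CPM in S303/7A and 39.1 ± 2.82 CPM in WT, and Fdps, with the list's largest log2 fold (0.27 ± 0.26), 4.43 ± 0.359 CPM in S303/7A and 3.67 ± 0.996 CPM in WT.

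Other interferon gamma targets had 13 tested genes, 0 called, 2 at an unadjusted p under 0.05, and a median log2 fold of -0.04. Nlrc5, the activator of MHC class I genes, averaged 173 ± 28.8 CPM in S303/7A and 162 ± 6.74 CPM in WT, and Ciita, its class II counterpart and the gene with the largest log2 fold (-0.72 ± 0.72), 2.82 ± 1.10 CPM in S303/7A and 4.66 ± 4.31 CPM in WT. The antigen-processing genes Psmb9 and Tap1 averaged 192 ± 1.44 and 286 ± 26.6 CPM in S303/7A, against 203 ± 15.6 and 295 ± 23.0 CPM in WT. Type I interferon-stimulated genes had 20 tested, 0 called, 1 at an unadjusted p under 0.05, and a median of -0.07. Ifit1 and Isg15 averaged 8.72 ± 2.42 and 6.29 ± 0.846 CPM in S303/7A, against 10.0 ± 2.77 and 6.54 ± 0.892 CPM in WT. Rsad2, which encodes the antiviral enzyme viperin, had 3.08, 1.09 and 2.63 CPM in S303/7A, against 6.48, 8.60 and 5.71 CPM in WT (log2 fold -1.61 ± 0.39, adjusted p = 0.233 in edgeR and 0.00508 in DESeq2), without overlap. Over the 88 tested genes of these lists, edgeR called 0 (0.364% of all tested genes), 13 had an unadjusted p under 0.05 (9.68% of all), and DESeq2 called 3, Ifngr2, Rsad2 and Tgtp2 (2.65% of all).

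**Figure D5:**
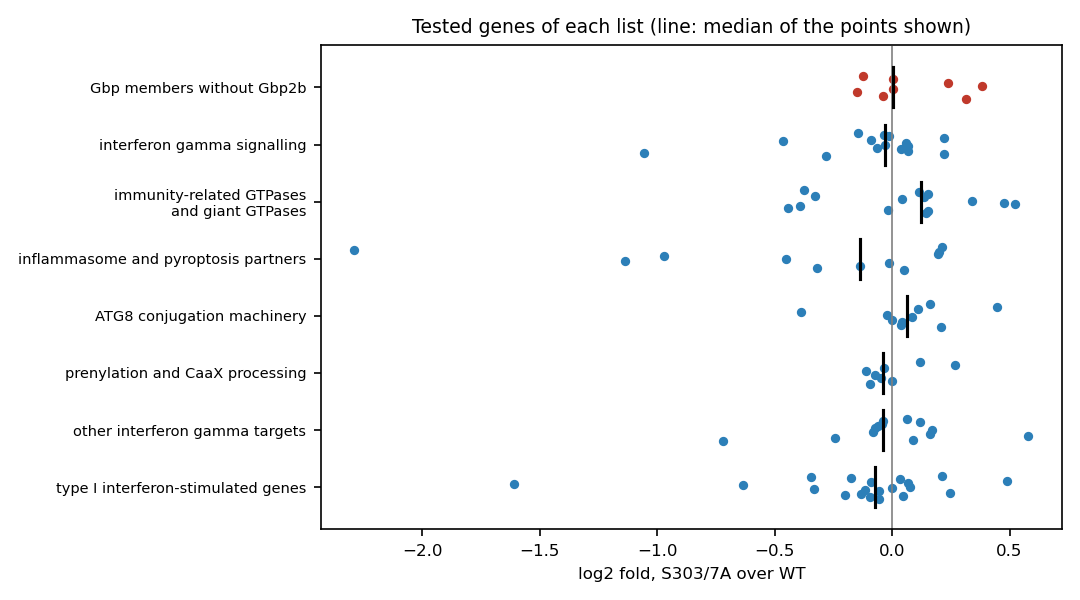
Log2 fold of S303/7A over WT for each tested gene, in rows for the 8 Gbp members with counts in both groups and for the 7 related lists, with a black line at the median of the points in each row. The medians lie between -0.14 and 0.12, and the points furthest to the left are Il1b, Rsad2, Nlrp3 and Ifngr2.

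The tested genes whose log2 CPM was most like the mean of the standardized members over the 6 libraries were Smchd1 (Pearson r = 0.987), Il2ra (0.985), Tmem18 (0.981), Ccnb2 (0.977) and Uhrf1 (0.976). After the group means were subtracted, the most alike were Ezh2 (r = 0.995), Dnajc3 (0.995), Nek8 (0.994), Sinhcaf (0.993) and Myef2 (0.992). They were picked as the highest of all genes over 6 libraries that share their sort and differ in depth, so the values are a description. Like the family sum, Smchd1 was highest in S303/7A 5 among the S303/7A libraries, with 158, 146 and 130 CPM in S303/7A and 145, 136 and 129 CPM in WT.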

How the data were processed

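Raw counts per gene were deposited by the authors for 6 libraries, together with a normalized signal per gene. Trimming with Trimmomatic, alignment with STAR to GRCm38 (mm10), counting with featureCounts and the use of DESeq2 are named, per the submitters' processing notes; versions, the annotation release, the strand setting and how reads matching several genes were treated are not given in the sources used. Each signal value was the raw count divided by a size factor per library (0.817 to 1.40), and whole counts came back within 0.01 for 99.998% to 100% of values, so a test on recovered reads is the test on the raw counts and calls the same 60 genes. No row named anything but a gene.

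The counts were tested in R 4.3.3 with edgeR 4.0.16 (filterByExpr with minimum count 10 and minimum total 15, TMM, quasi-likelihood test, all 6 libraries, genotype only), adjusted over 16480 genes at a threshold of 0.05. Standard errors are Wald-type. DESeq2 1.42.0, limma 3.58.1 (voom), library totals, RLE factors, no filter, equal thinned totals, coding length and leaving out each library were alternatives. Chi-square per gene within groups was 26.5 to 82.0, so no pair agreed within sampling noise. Intervals and floors (3 counts) cover counting error only.

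The members, lists and named genes were chosen with earlier results of these data known. Genes named were all Gbp loci, Hsf1, 26 set pathway genes (of which 1 is not reported here), called pathway genes, the largest log2 fold per list, called genes within 1 Mb and the 5 most alike by each measure among genes with a mean log2 CPM of at least 2. Klrb1c, the marker genes beside their sums, Nlrp3 and Gm1966 were named after their values were seen. Single-cell and open chromatin data were not used here.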

Additional observations from a re-analysis of the deposited data

How the results depend on the processing

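Of the 9 members, edgeR's main settings called 0, and DESeq2 and edgeR with no low-count filter each called 1, Gbp2b in both. Over all genes the 60 calls became 437 with DESeq2 (154 higher and 283 lower), 38 with limma-voom (16 higher and 22 lower) and 171 of 34067 with no low-count filter (54 higher and 117 lower), and 61 with library totals, 60 with RLE factors and 56 with thinned counts. Leaving out 1 library gave 5 to 57 calls over all genes, the lowest without WT 2 and the highest (38 higher and 19 lower) without S303/7A 6, and the other 4 fits gave 21 to 31; the same fits called 0 members, 0 to 1 pathway genes and 0 genes within 1 Mb of the clusters. Of the pathway genes, 0 were called with the main settings and 3 with DESeq2, and without S303/7A 6 Gm1966 was called. The cause of these differences was not tested. Gbp2, Gbp6 and Gbp7 kept the sign of their log2 fold in all 12 alternative fits. The uncalled folds of Gbp4 and Gbp9 did in 11, Gbp3 in 10, Gbp5 in 7 and Gbp8 in 6. The sign of Gbp2b was set by its 0 counts in each WT library and could not change between fits. With 3 mice a group, the CPM values of S303/7A and WT overlapped for every member except Gbp2b and Gbp7. Groups did not overlap for 16.0% of all tested genes, and for Gbp2b the low-count filter set this. No paired analysis was possible because the groups share no replicate number.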
